A study of Homo sapiens with 4 samples.

Results

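The 45 genes described here encode DNA repair proteins, and they were chosen by name from 19775 genes that the array platform lists. They fall into 6 groups: 15 genes of homologous recombination, 8 Fanconi genes, 6 of mismatch repair, 6 of end joining, 6 of base excision and single-strand break repair, and 4 of damage signalling. The samples were cultures of HCT116, an established human colon cancer line that is deficient in mismatch repair and the labels name no introduced gene or knockdown. Serum was withdrawn from all cultures for 24 h before they spent 72 h (3 days) at 1% oxygen (hypoxia) or 21% oxygen (normoxia). Each group held 2 arrays, which carry the names exp A and exp B. No label tells if these came from separate cultures, so that p-values reflect only how far these samples differ, perhaps for technical reasons. In RNA from whole cultures, fewer cells that express a gene and less RNA per cell cannot be told apart.

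DNA repair is divided among routes that each handle a kind of lesion. Homologous recombination copies the intact sister molecule to mend a break through both strands, and works mainly in S and G2 phase, while end joining religates the broken ends at any stage of the cycle. The Fanconi pathway unhooks crosslinks between strands, mismatch repair corrects errors of replication, and base excision repair replaces damaged bases. The kinases ATM and ATR, with their effectors CHEK2 and CHEK1, detect breaks and stalled forks and hold the cell cycle. Many recombination genes are transcribed most strongly in dividing cells through E2F factors.

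Values are MAS5 signals, 1 per probe set (a set of short probes against 1 transcript). A gene was represented by its brightest probe set, by mean over the 4 arrays. A difference is taken as hypoxia minus normoxia after log2(signal + 23.7), a scale that understates the change of dim genes, and each array was scaled to the same trimmed mean, so that directions are relative to the other genes of an array. A gene was called at an adjusted p under 0.05 in limma, with Benjamini-Hochberg adjustment over 12636 genes. The 5 measured genes of a hypoxia check list rose in hypoxia, among them EGLN3, with mean signals of 135 ± 59.5 in normoxia and 2062 ± 338 in hypoxia (± SD, n = 2 arrays, as for every mean signal below). Of 7 epithelial markers, KRT8, KRT18, KRT19, EPCAM and CDH1 were bright on every array (KRT19, EPCAM and CDH1 were called higher in hypoxia), while VIL1 and CDX2 lay between 23.0 and 217. The summed signal of 3 leukocyte markers was 70.1 to 233, and that of 3 endothelial markers was 89.1 to 215 in normoxia and 270.0 to 303 in hypoxia. Of 4 fibroblast genes, COL1A1 rose, with mean signals of 569.9 ± 35.8 in normoxia and 1957 ± 289.6 in hypoxia, and no other one exceeded 286 on any array. The ratio of the 3' to the 5' probe set was 0.912 to 0.996 for GAPDH on all arrays, but for ACTB it was 1.26 and 1.28 in normoxia against 1.66 and 1.77 in hypoxia. Its part in the results below was not tested.

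Most of the repair genes were lower after 3 days at low oxygen. Of the 45 genes, 42 had a probe set for that gene alone and all 42 passed the filter on low signal; FANCD2, PMS2 and RBBP8 had no such probe set and were not analysed here. In hypoxia 23 of the 42 fell, 1 rose and 18 were not called, and at an unadjusted p under 0.05 in limma the number higher was still 1, the gene PARP2. Over all 12636 genes tested, 22.8% were called lower and 15.3% higher, against 54.8% of the repair genes called lower. The median log2 difference of the 42 genes was -1.11, and that of all genes tested was -0.03. A difference below 0 was found in 39 of the 42 genes. In 32 of them both hypoxia arrays lay under both normoxia arrays, a pattern seen in 37.9% of all genes tested; in 1 they lay above both, as in 34.1% of all genes. Of the 23 genes that fell, 22 were at least 2-fold lower and 8 at least 4-fold lower by the log2 difference. The mean hypoxia signal of 9 of the 23 lay under 305, the brightest Bacillus control probe set (a target not present in human RNA) on a hypoxia array, so their folds end near background.

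**Figure D1:**
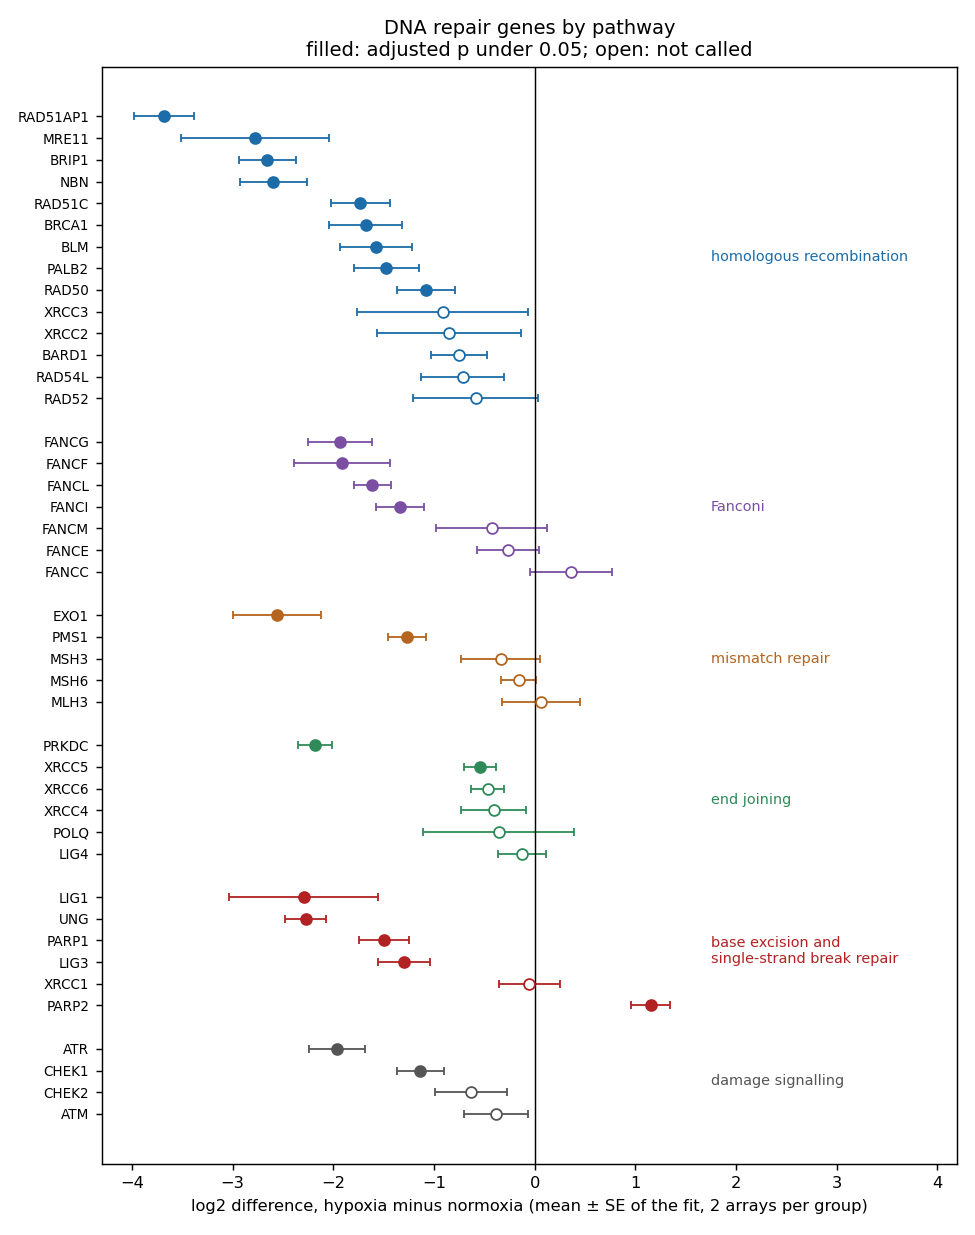
The horizontal axis is the log2 difference, hypoxia minus normoxia, with the SE of the limma fit as bars (2 arrays per group), for the 42 measured DNA repair genes grouped by pathway. Filled points were called at an adjusted p under 0.05: 23 lie below 0 and 1 (PARP2, 1.15) above it, and RAD51AP1 has the lowest value (-3.68).

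The genes of cell division fell beside them. All 7 genes of a proliferation list were called lower, from MKI67 (log2 difference -0.76) to the cyclin gene CCNB1 (-2.65), with a median of -1.94. MKI67 was no longer called when normoxia A (adjusted p = 0.289) or normoxia B (0.2004) was left out, and the other 6 kept theirs without each array in turn. Their summed signal was 31185 and 33039 on the normoxia arrays against 11382 and 12791 on the hypoxia arrays. Their part in the decrease of the repair genes was not tested. Hypoxia arrays differed more from each other than normoxia arrays did: the median SD over the 42 genes was 0.39 on the log2 scale in hypoxia and 0.14 in normoxia. Without 1 normoxia array the fit has only the hypoxia pair to estimate spread from, and 15 (without A) or 14 (without B) of the 23 decreases were still called, against all 23 without either hypoxia array. Over all genes the share called lower was then 10.8%, 11.3%, 29.7% (without hypoxia A) and 29% (without hypoxia B). Of the 24 probe sets behind the calls 12 carry a suffix (_x_at or _s_at) for sets that can bind other transcripts. With such sets left out 14 of 30 genes tested fell and 0 rose, beside 20.1% and 13.1% of all genes in that fit. PARP2 has only such sets and was not among the 30, so that fit could not test its increase.

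Homologous recombination, the largest group, had the most decreases, with 9 of 14 called lower and 0 higher, and a median log2 difference of -1.52. RAD51AP1, whose product stimulates strand invasion by the recombinase, had a signal of 3805 (A) and 3119.6 (B) in normoxia and 339.9 (A) and 178 (B) in hypoxia. Both hypoxia arrays lay far under both normoxia arrays, and the log2 difference was the lowest of all 42 genes (-3.68 ± 0.30 SE, adjusted p = 7.75e-05). BRIP1, a helicase that binds BRCA1, gave 1124 (A) and 1356 (B) in normoxia and 175 (A) and 178 (B) in hypoxia (log2 difference -2.65 ± 0.29 SE, adjusted p = 2.42e-04). The hypoxia arrays of BRIP1 nearly coincided, and both lay far under the normoxia arrays.

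The 3 subunits of the complex that senses and trims broken ends, MRE11, RAD50 and NBN, all fell. NBN, the regulatory subunit, gave 3639.8 (A) and 3604 (B) in normoxia and 879.8 (A) and 378 (B) in hypoxia (log2 difference -2.60 ± 0.33 SE, adjusted p = 5.22e-04). Of its other probe sets 3 were called lower too, and the only one without a suffix was dim and not called (1.07). The nuclease MRE11 gave 518 (A) and 495 (B) in normoxia and 147 (A) and 11.1 (B) in hypoxia (log2 difference -2.78 ± 0.74 SE, adjusted p = 0.0163). Hypoxia B was far lower than hypoxia A for MRE11: leaving out B gave -1.63, and leaving out A gave -3.93. A second MRE11 set, with no suffix, had -0.98 and was not called. RAD50, which holds the ends together, fell less, with mean signals of 1122 ± 169 in normoxia and 529 ± 180.0 in hypoxia (log2 difference -1.08 ± 0.29 SE, adjusted p = 0.0166). The calls of MRE11 (adjusted p = 0.111 and 0.0847) and RAD50 (0.178 and 0.0683) were lost without normoxia A and without normoxia B. So they were with no intensity trend (0.0766 for MRE11 and 0.0774 for RAD50) and without suffixed probe sets (0.446 and 0.0930). The MRE11 call was also lost with the mean over its sets (-1.27, adjusted p = 0.0537), which takes in a set under the filter, at -0.05.

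BRCA1 and its partners were split. BRCA1, a ubiquitin ligase that promotes resection and recombinase loading, fell, with mean signals of 632 ± 35.3 in normoxia and 186 ± 60.8 in hypoxia (log2 difference -1.68 ± 0.36 SE, adjusted p = 0.00644). PALB2, which links BRCA1 to the loading step, fell, with mean signals of 991 ± 96.2 in normoxia and 356 ± 149 in hypoxia (log2 difference -1.47 ± 0.32 SE, adjusted p = 0.00699). BARD1, the obligate partner of BRCA1, had 706 (A) and 612 (B) in normoxia and 374 (A) and 386 (B) in hypoxia and was not called (log2 difference -0.75 ± 0.28 SE, adjusted p = 0.0599), although its groups did not overlap. It was called without hypoxia A (adjusted p = 0.0268) and without hypoxia B (0.0220). The helicase gene BLM, which dissolves recombination intermediates, fell, with mean signals of 691 ± 48.8 in normoxia and 224 ± 88.6 in hypoxia (log2 difference -1.58 ± 0.36 SE, adjusted p = 0.00821). Without normoxia A the adjusted p was 0.0782 for BRCA1 and 0.0538 for BLM, and without normoxia B it was 0.0546 for BRCA1, 0.0689 for PALB2 and 0.0821 for BLM. With no intensity trend it was 0.0511 for PALB2.

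Of the recombinase paralogs, which help filaments form, RAD51C fell, with mean signals of 2253 ± 199 in normoxia and 695 ± 312 in hypoxia (log2 difference -1.73 ± 0.29 SE, adjusted p = 0.00199), while XRCC2 and XRCC3 were not called. XRCC2 gave 351 (A) and 281 (B) in normoxia and 409.8 (A) and 57.3 (B) in hypoxia (log2 difference -0.85 ± 0.72 SE, adjusted p = 0.380). XRCC3 gave 133 (A) and 156 (B) in normoxia and 146 (A) and 23.3 (B) in hypoxia (log2 difference -0.92 ± 0.84 SE, adjusted p = 0.423). For both, hypoxia A lay within or above the normoxia values and hypoxia B far below them. XRCC2 had a log2 difference of 0.36 without hypoxia B and -2.06 without hypoxia A, where it was called (adjusted p = 0.00545). RAD54L, a motor protein of strand exchange, had a log2 difference of -0.72 ± 0.41 SE, adjusted p = 0.201. RAD52, an annealing protein, was the uncalled gene with the smallest difference in this group, with 139.5 (A) and 207 (B) in normoxia and 136 (A) and 81.0 (B) in hypoxia (log2 difference -0.59 ± 0.62 SE, adjusted p = 0.484). Its signal was dim on all 4 arrays.

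**Figure D2:**
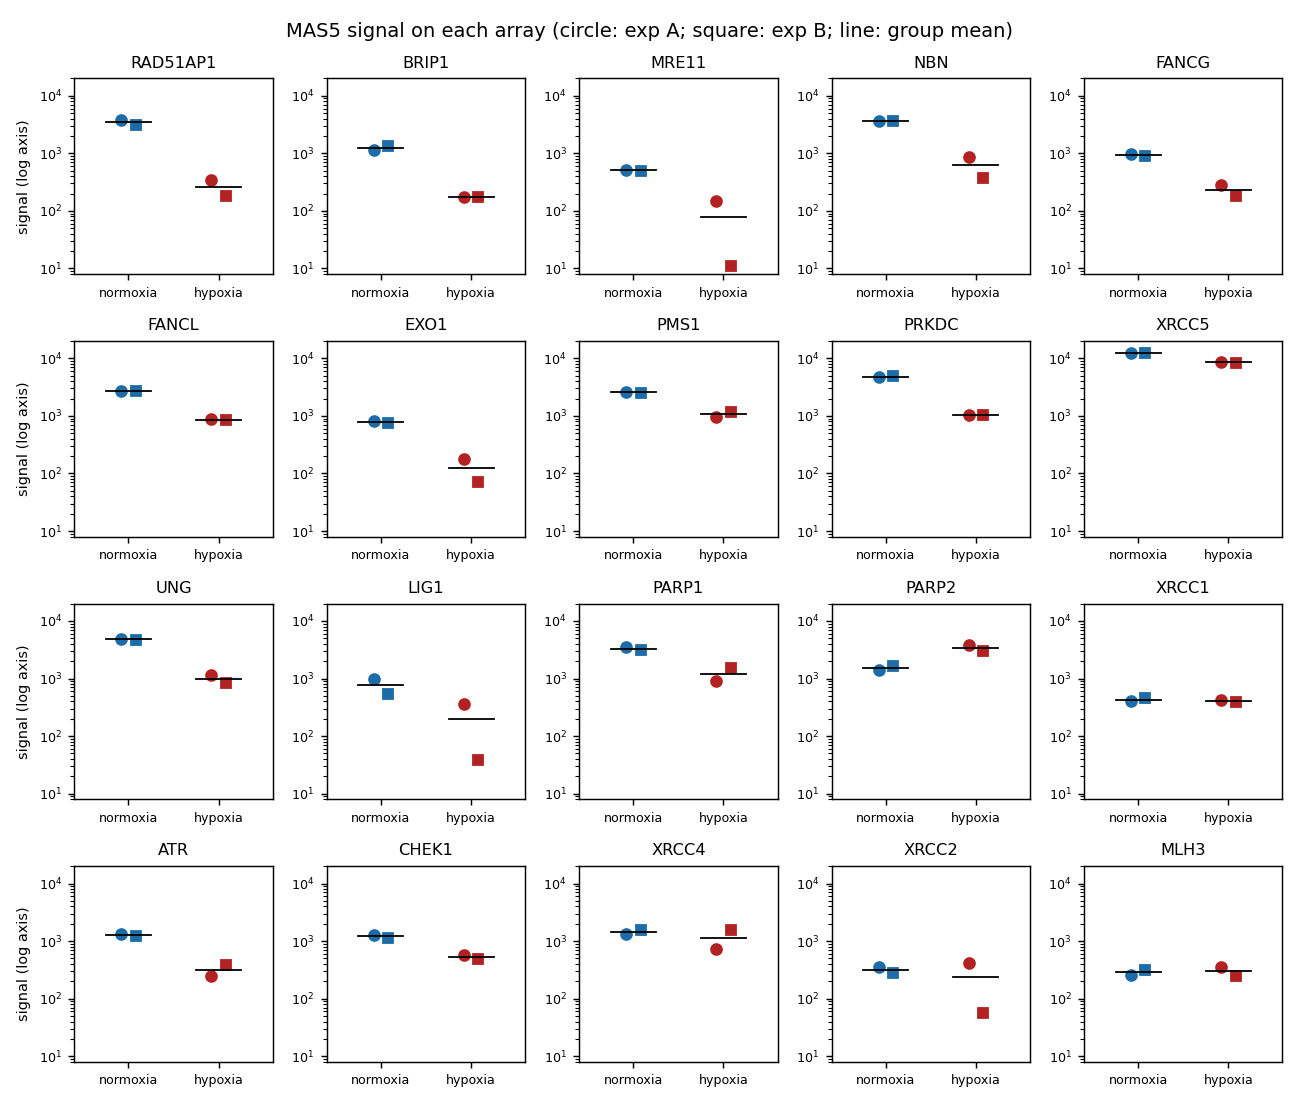
Each panel plots the MAS5 signal (log axis) of 1 gene on the 2 normoxia arrays (blue) and the 2 hypoxia arrays (red), with exp A as circles, exp B as squares and the group mean as a line. PRKDC and FANCL drop with little spread, PARP2 is higher on both hypoxia arrays, and MRE11, LIG1 and XRCC2 differ widely between hypoxia A and B.

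Of 7 measured Fanconi genes, 4 fell and 0 rose, with a median log2 difference of -1.34. FANCL, the ubiquitin ligase of the core complex, gave 2727 (A) and 2668 (B) in normoxia and 893 (A) and 838 (B) in hypoxia (log2 difference -1.61 ± 0.18 SE, adjusted p = 3.01e-04). FANCG, a scaffold subunit, gave 962 (A) and 904 (B) in normoxia and 283 (A) and 180.2 (B) in hypoxia (log2 difference -1.93 ± 0.32 SE, adjusted p = 0.00166). FANCF, an adaptor subunit, gave 561 (A) and 435 (B) in normoxia and 169 (A) and 74.0 (B) in hypoxia (log2 difference -1.92 ± 0.48 SE, adjusted p = 0.0123). In these 3 core subunits both hypoxia arrays were well under the normoxia arrays, but leaving out normoxia A or B raised the adjusted p of FANCF to 0.155 or 0.0608. FANCI, the clamp subunit that the core complex ubiquitinates, gave 1766 (A) and 1729 (B) in normoxia and 823 (A) and 555 (B) in hypoxia (log2 difference -1.34 ± 0.24 SE, adjusted p = 0.00254).

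Calls were split within the core complex. Of its 6 measured subunits FANCF, FANCG and FANCL fell, and FANCC, FANCE and FANCM were not called. FANCE, which recruits the substrate, gave 497 (A) and 416 (B) in normoxia and 353 (A) and 398 (B) in hypoxia (log2 difference -0.26 ± 0.31 SE, adjusted p = 0.529). FANCC, its binding partner, gave 238 (A) and 261 (B) in normoxia and 254 (A) and 420.3 (B) in hypoxia, so that the groups overlapped (log2 difference 0.36 ± 0.40 SE, adjusted p = 0.508). FANCM, the translocase that anchors the complex to DNA, was dim, at 226 (A) and 154 (B) in normoxia and 149 (A) and 119 (B) in hypoxia (log2 difference -0.43 ± 0.55 SE, adjusted p = 0.568). Whether these subunits differed from the ones that fell was not tested.

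Mismatch repair genes had the median log2 difference nearest to 0, -0.34, with 2 of 5 called lower and 0 higher. That median was -1.27 with the filter at the 75th percentile and -0.46 with the mean over probe sets, where the end joining median (-0.47 and -0.29) was nearer to 0. The decreases were in EXO1 and PMS1. EXO1, the exonuclease that removes the faulty strand and also resects breaks, gave 818 (A) and 763 (B) in normoxia and 178 (A) and 71.0 (B) in hypoxia (log2 difference -2.56 ± 0.44 SE, adjusted p = 0.00206). PMS1, a MutL family protein of uncertain role in human cells, gave 2654 (A) and 2503 (B) in normoxia and 958 (A) and 1165 (B) in hypoxia (log2 difference -1.27 ± 0.19 SE, adjusted p = 0.00110). Both hypoxia arrays lay under both normoxia arrays in each of these genes. The only other PMS1 set past the filter was dim and had 0.26. The mean over all PMS1 sets, which takes in dim ones under the filter, gave -0.46 (adjusted p = 0.421).

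The recognition genes MSH6 and MSH3, and also MLH3, had small differences on their chosen sets. MSH6, which finds base mismatches, gave 2929 (A) and 2654 (B) in normoxia and 2359 (A) and 2635 (B) in hypoxia (log2 difference -0.16 ± 0.17 SE, adjusted p = 0.491). The normoxia and hypoxia values of MSH6 lay close together on a bright probe set. MSH3, which finds small loops, had a log2 difference of -0.34 ± 0.39 SE, adjusted p = 0.525. MLH3, a nuclease subunit, had the smallest difference of the group, with 261 (A) and 312 (B) in normoxia and 356 (A) and 251 (B) in hypoxia (log2 difference 0.06 ± 0.38 SE, adjusted p = 0.912). The other MLH3 sets were at -1.35 and -1.02, neither of them called. The mean over its sets gave -0.77 (adjusted p = 0.127).

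In end joining, 2 of 6 genes fell and 0 rose, with a median log2 difference of -0.44. On the chosen probe sets 1 gene stood far from the rest. PRKDC, the DNA-dependent protein kinase that bridges the ends, gave 4740.2 (A) and 4882 (B) in normoxia and 1037 (A) and 1052 (B) in hypoxia (log2 difference -2.18 ± 0.17 SE, adjusted p = 6.49e-05). Arrays of 1 group nearly coincided, and without any 1 array the log2 difference of PRKDC stayed between -2.20 and -2.16. The end-binding Ku subunits had smaller differences on their chosen sets. XRCC5 gave 12488 (A) and 12299 (B) in normoxia and 8539.7 (A) and 8442 (B) in hypoxia (log2 difference -0.54 ± 0.16 SE, adjusted p = 0.0235). A second bright XRCC5 set gave 10050 (A) and 9765 (B) in normoxia and 3889 (A) and 2703 (B) in hypoxia. Its log2 difference was -1.60 (adjusted p = 5.81e-04 over 23176 probe sets). Another XRCC5 set, dim and under the filter, had 1.06 and enters the mean over its probe sets. XRCC6 gave 11759.6 (A) and 12829 (B) in normoxia and 8354 (A) and 9434 (B) in hypoxia (log2 difference -0.47 ± 0.16 SE, adjusted p = 0.0518), just over the threshold. The call of XRCC5 was lost when normoxia A was left out (adjusted p = 0.101), without normoxia B (0.0837), with arrays scaled to their 75th percentile (0.0840), with no intensity trend (0.109) and with the mean over its probe sets (0.326). XRCC6 gained one without hypoxia B (0.0312), with the filter at the 75th percentile (0.0394), with the pseudocount at the median probe set mean (0.0498) and after quantile normalization (0.0018).

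The ligation step gave no call. LIG4, the ligase of this route, gave 884 (A) and 715 (B) in normoxia and 752 (A) and 705 (B) in hypoxia (log2 difference -0.12 ± 0.24 SE, adjusted p = 0.715), and the groups overlapped. Its partner XRCC4 gave 1333 (A) and 1552 (B) in normoxia and 739.7 (A) and 1569 (B) in hypoxia (log2 difference -0.41 ± 0.32 SE, adjusted p = 0.347). Hypoxia A was low and hypoxia B high for XRCC4, with a log2 difference of -0.94 without hypoxia B, where it was called (adjusted p = 9.43e-04), and 0.12 without hypoxia A (0.538). POLQ, the polymerase of an alternative joining route that uses short homologies, was dim, at 196 (A) and 123 (B) in normoxia and 242 (A) and 50.1 (B) in hypoxia (log2 difference -0.36 ± 0.75 SE, adjusted p = 0.735).

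Base excision and single-strand break repair had changes in both directions, with 4 of 6 genes lower, 1 higher, and a median log2 difference of -1.40. UNG, the glycosylase that cuts uracil out of DNA, gave 4932 (A) and 4677 (B) in normoxia and 1155 (A) and 820.3 (B) in hypoxia (log2 difference -2.27 ± 0.20 SE, adjusted p = 1.14e-04). LIG1, which seals nicks in long repair patches and between Okazaki fragments, gave 999 (A) and 542 (B) in normoxia and 359 (A) and 39.1 (B) in hypoxia (log2 difference -2.30 ± 0.74 SE, adjusted p = 0.0367). Among the genes called lower LIG1 had the highest adjusted p. It was not called without normoxia A (-1.87, adjusted p = 0.154), with no intensity trend (0.152), with no filter (0.0565), after quantile normalization (0.0635), in the fit of gene means over probe sets (0.0751) or in that without suffixed sets (0.0506). Leaving out hypoxia B gave -0.99, and leaving out hypoxia A gave -3.60. LIG3, the partner ligase of XRCC1, gave 902 (A) and 1112 (B) in normoxia and 421 (A) and 367 (B) in hypoxia (log2 difference -1.30 ± 0.26 SE, adjusted p = 0.00435), with adjusted p = 0.0981 without normoxia B and 0.0836 without suffixed sets.

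The sensors of strand breaks went opposite ways. PARP1, the main poly(ADP-ribose) polymerase, gave 3515 (A) and 3122 (B) in normoxia and 895 (A) and 1506 (B) in hypoxia (log2 difference -1.49 ± 0.25 SE, adjusted p = 0.00181). PARP2, a second enzyme of the same family, gave 1418 (A) and 1656 (B) in normoxia and 3844 (A) and 3064 (B) in hypoxia (log2 difference 1.15 ± 0.19 SE, adjusted p = 0.00181). Both PARP2 values in hypoxia lay above both in normoxia, and it was the only one of the 42 genes called higher; scaled to the hybridization controls, which shifted the median of all genes by -1.37, its log2 difference was -0.29. All 3 PARP2 probe sets gave nearly the same value, 1.15 to 1.16, but all of them carry such a suffix. XRCC1, the scaffold that gathers the repair enzymes at a nick, gave 402 (A) and 459 (B) in normoxia and 431 (A) and 396 (B) in hypoxia (log2 difference -0.05 ± 0.30 SE, adjusted p = 0.903). Its 4 values overlapped.

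In damage signalling, the arm that responds to stalled forks fell. ATR, its sensor kinase, gave 1333 (A) and 1221 (B) in normoxia and 251 (A) and 379.5 (B) in hypoxia (log2 difference -1.96 ± 0.28 SE, adjusted p = 8.40e-04). The mean over its probe sets gave -0.52 (adjusted p = 0.452) and takes in a dim set under the filter, at 1.46. Its other set past the filter was at -1.07 (adjusted p = 0.0515 over 23176 probe sets). CHEK1, the effector kinase of ATR, gave 1295 (A) and 1123 (B) in normoxia and 578 (A) and 495 (B) in hypoxia (log2 difference -1.14 ± 0.23 SE, adjusted p = 0.00499), with adjusted p = 0.109 without normoxia A and 0.0537 without normoxia B. In the arm that responds to breaks, ATM gave 493 (A) and 449 (B) in normoxia and 309.6 (A) and 408 (B) in hypoxia on its brightest probe set (log2 difference -0.38 ± 0.32 SE, adjusted p = 0.371). CHEK2, the effector of ATM, gave 628 (A) and 877 (B) in normoxia and 331 (A) and 666 (B) in hypoxia (log2 difference -0.63 ± 0.36 SE, adjusted p = 0.195), with -1.11 (adjusted p = 0.00488) without hypoxia B. Hypoxia B of CHEK2 lay between the normoxia arrays. That ATR and CHEK1 were called and ATM and CHEK2 were not does not show a difference between the arms, which was not tested.

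ATM depended on the probe set. A second set, with no suffix, gave 546 (A) and 552 (B) in normoxia and 145 (A) and 146 (B) in hypoxia, a log2 difference of -1.76 (adjusted p = 0.00654 over 23176 probe sets). The set with the highest mean carries the _x_at suffix. Of the 18 genes not called, ATM was the only one with another probe set called in that fit, in which 18.3% of all probe sets were called lower and 14.1% higher.

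Other genes also differed among their probe sets. Of 104 probe sets of the 42 genes, 83 passed the filter, 38 were called lower and 3 higher, the latter all of PARP2. Over 1 probe set passed for 24 genes, with the same sign in all of them for 17. XRCC5 had a second set at -1.60 (adjusted p = 5.81e-04) beside the chosen one at -0.54. CHEK1 had sets at -2.17 and -1.45 beside -1.14, and FANCI had sets at -2.11 and -1.44 beside -1.34. Mixed signs were found in NBN (1.07 in 1 of 5 sets), LIG3 (0.72 in 1 of 6), PMS1 (0.26), XRCC4 (0.24), ATM (0.42), LIG4 and MLH3, where the chosen set was the one above 0 (0.06) and the others were at -1.35 and -1.02. No set with a sign opposite to the chosen one was called.

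**Figure D3:**
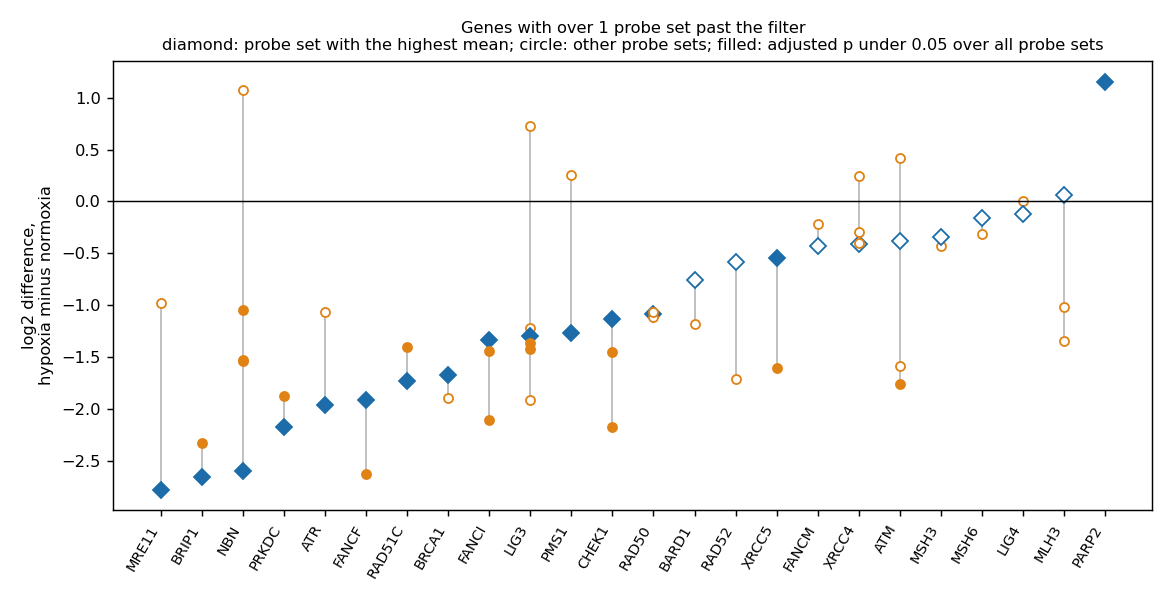
The vertical axis is the log2 difference, hypoxia minus normoxia, of every probe set past the filter for the 24 genes with over 1 such set; diamonds are the sets used for the gene and circles the others, filled where the adjusted p over 23176 probe sets was under 0.05. The 3 PARP2 sets coincide above 1, while the sets of NBN, LIG3 and ATM spread across 0.

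Between pathways, the median log2 difference ran from -1.52 (homologous recombination), -1.40 (base excision repair) and -1.34 (Fanconi) through -0.88 (damage signalling) to -0.44 (end joining) and -0.34 (mismatch repair). With 4 to 14 genes a group and 2 arrays per condition these values describe the genes listed, and the difference between pathways was not tested. Each gene was counted in 1 pathway only, although EXO1, BRIP1, LIG1 and BLM act in more than 1. Without 1 array the median of homologous recombination lay between -1.63 and -1.35 and that of end joining between -0.55 and -0.47.

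The 96 measured genes of a wider repair list, chosen for their roles, had a median below 0 too, of lesser size. Of these 40 were called lower, 1 higher and 55 not called, with a median log2 difference of -0.76 (22.8% and 15.3% of all genes tested were called lower and higher). The pathway order was not the same in it: other end joining genes had a median of -1.02 with 5 of 11 lower, while other homologous recombination genes had -0.86 with 8 of 18 lower, other Fanconi genes -0.75 with 3 of 9 and other base excision genes -0.55 with 6 of 15. Among other end joining genes, APTX, which removes stalled ligation products, fell, with mean signals of 2039.7 ± 60.8 in normoxia and 482 ± 36.8 in hypoxia (log2 difference -2.03 ± 0.21 SE, adjusted p = 1.93e-04), and DCLRE1C, the Artemis nuclease, had -1.40 and PAXX -1.27. In recombination RAD51D had -2.74, DNA2, a resection nuclease, -2.06 and SFR1 -1.95.

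Among other base excision genes the largest decreases were OGG1 (-3.11), which removes oxidised guanine, NEIL3 (-2.31) and NTHL1 (-2.24), glycosylases like UNG. The glycosylase genes MUTYH (-0.41), NEIL2 (-0.55), MBD4 (-0.22), MPG (-0.01) and TDG (0.04) were not called. UBE2T, the conjugating enzyme that works with FANCL, fell, with mean signals of 3270.4 ± 212 in normoxia and 1527 ± 12.5 in hypoxia (log2 difference -1.09 ± 0.17 SE, adjusted p = 0.00139), and FAAP100 (-3.08) and FAAP20 (-0.95) of the core complex fell as well, while FANCB (-0.95, adjusted p = 0.395) and FAAP24 (-0.09, adjusted p = 0.895) were not called. The fork protection pair TIPIN (-2.25) and TIMELESS (-2.14) and the histone gene H2AX (-1.53) were the largest decreases in other signalling genes, of which 5 of 14 fell. Nucleotide excision repair, which removes bulky adducts, had 9 of 18 lower and 1 higher, with a median of -0.60. Its largest decreases were XPA (-2.97) and the TFIIH subunits GTF2H3 (-2.73) and GTF2H5 (-1.66), and CETN2, a centrin in the lesion recognition complex, rose, with mean signals of 1244 ± 132 in normoxia and 2682 ± 757 in hypoxia (log2 difference 1.07 ± 0.23 SE, adjusted p = 0.00602). In translesion synthesis 3 of 8 fell, RAD18 (-1.69), POLK (-1.12) and UBE2A (-0.61), and in direct reversal 1 of 3, ALKBH2 (-0.94).

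Many of these calls rested on the normoxia pair. Of the 40 decreases in the wider list 13 were called without each of the 4 arrays in turn, among them APTX, SFR1, NEIL3, UBE2T, TIPIN, TIMELESS, H2AX, GTF2H3 and GTF2H5. Without normoxia A and without normoxia B the calls of RAD51D (adjusted p = 0.452 and 0.466), FAAP100 (0.107 and 0.129), FAAP20 (0.0767 and 0.223), PAXX (0.329 and 0.0981), NTHL1 (0.128 and 0.104), RAD18 (0.0982 and 0.0842), POLK (0.0799 and 0.175), UBE2A (0.155 and 0.209) and ALKBH2 (0.164 and 0.177) were lost. Without normoxia A alone DNA2 (0.244) and OGG1 (0.0963) were lost, and without normoxia B alone DCLRE1C (0.0920), XPA (0.0512) and CETN2 (0.0706). The hypoxia arrays set the size of several of them. Without hypoxia A and without hypoxia B the log2 difference was -4.31 and -1.63 for XPA, -1.20 and -3.27 for NTHL1 and -2.53 and -0.86 for RAD18. For OGG1 it was -2.05 and -4.17, and for SMUG1 -2.94 and -1.07. The mean hypoxia signals of RAD51D, DNA2, DCLRE1C, PAXX, FAAP100, OGG1, NEIL3, NTHL1, SMUG1, XPA, RAD18 and TIMELESS lay under 305, the brightest Bacillus control. The folds of these genes end near background too.

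**Figure D4:**
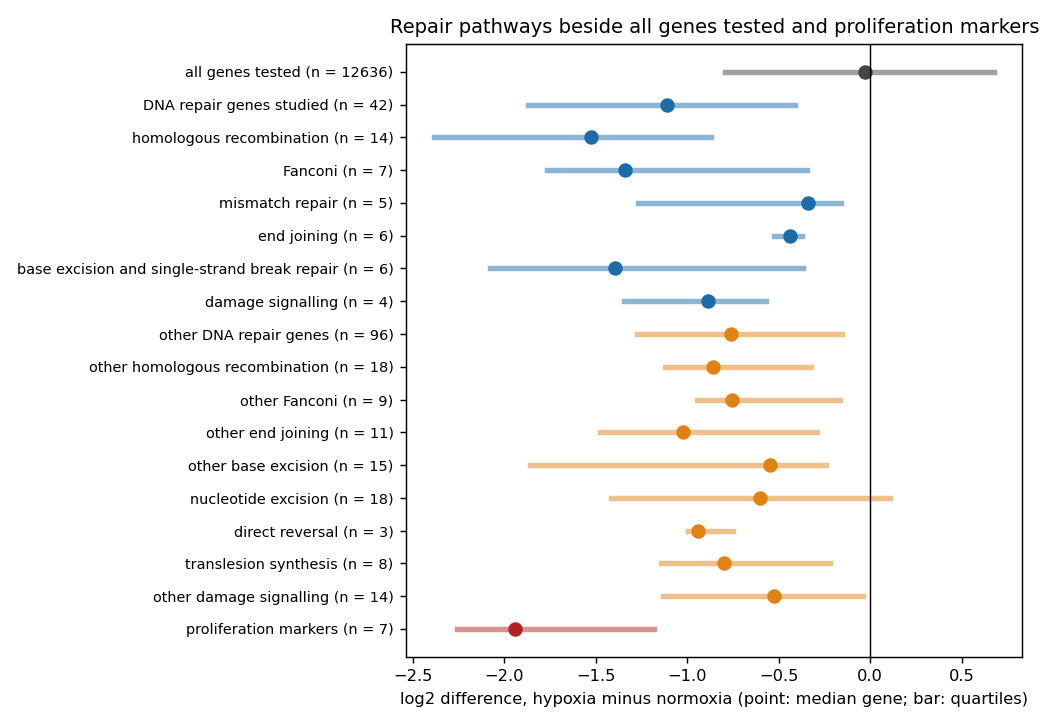
Points are the median log2 difference, hypoxia minus normoxia, and bars the quartiles over the tested genes of each list, whose number stands beside its name (blue, the genes studied; orange, other repair genes; grey, all 12636 genes; red, proliferation markers). Every repair list drawn has its median below that of all genes (-0.03) and above that of the proliferation markers (-1.94).

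The promoters were read for the words of known cell cycle and hypoxia elements, since many of the genes moved together. RefSeq promoters (GRCh38.p14, a single start per gene, 250 bases before to 50 after it) were at hand for 41 of the 45 genes. The E2F words searched on both strands were the word TTCCCGC, the word TTGGCGC, the word TTCGCGC and the word TTGCCGC. At least 1 stood in 26 of 41 repair gene promoters (63.4%), against 20.4% of the 9722 protein-coding promoters of genes tested. It stood in 11 of 19 promoters of genes that fell (57.9%) and 13 of 19 of those tested and not called lower (68.4%), a difference that was not tested. Over all tested genes called lower the share was 23.9%. These are descriptions of letters and not of binding.

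Of the promoters below, RAD51AP1 and UNG belong to genes that fell, XRCC1 to a gene that was not called and PARP2 to the gene that rose, and all hold an E2F word, in capitals, as it reads on the gene's strand. They lie at chr12:4538640-4538939 on the plus strand (RAD51AP1), chr12:109097347-109097646 on the plus strand (UNG), chr19:43575478-43575777 on the minus strand (XRCC1) and chr14:20343385-20343684 on the plus strand (PARP2). In UNG 2 words overlap, 1 on each strand, and run into a CCAAT word. In RAD51AP1 the capitals GCGGGAA are TTCCCGC read on the other strand.
RAD51AP1: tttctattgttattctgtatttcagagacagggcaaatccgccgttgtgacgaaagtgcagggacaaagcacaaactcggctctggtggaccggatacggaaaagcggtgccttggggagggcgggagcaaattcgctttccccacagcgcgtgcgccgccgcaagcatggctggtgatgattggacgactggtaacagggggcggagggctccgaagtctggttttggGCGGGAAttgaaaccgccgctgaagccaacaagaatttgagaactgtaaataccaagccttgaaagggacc
UNG: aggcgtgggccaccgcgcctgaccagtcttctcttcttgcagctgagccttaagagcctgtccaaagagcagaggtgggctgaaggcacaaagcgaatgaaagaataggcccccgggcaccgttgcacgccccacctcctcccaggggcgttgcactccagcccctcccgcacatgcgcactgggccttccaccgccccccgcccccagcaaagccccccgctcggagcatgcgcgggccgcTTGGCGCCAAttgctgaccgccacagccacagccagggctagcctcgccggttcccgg
XRCC1: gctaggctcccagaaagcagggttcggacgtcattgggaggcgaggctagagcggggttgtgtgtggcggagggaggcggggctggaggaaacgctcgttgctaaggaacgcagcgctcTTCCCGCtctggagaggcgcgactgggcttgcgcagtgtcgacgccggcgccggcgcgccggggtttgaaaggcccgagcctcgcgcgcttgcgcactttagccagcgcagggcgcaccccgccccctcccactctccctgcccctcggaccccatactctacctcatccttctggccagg
PARP2: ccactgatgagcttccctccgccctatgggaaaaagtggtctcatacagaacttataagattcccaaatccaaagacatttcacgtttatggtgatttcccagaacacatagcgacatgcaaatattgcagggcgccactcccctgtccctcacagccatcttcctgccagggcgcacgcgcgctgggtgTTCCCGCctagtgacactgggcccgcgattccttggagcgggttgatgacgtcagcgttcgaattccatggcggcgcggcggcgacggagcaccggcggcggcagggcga

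The word begins 21 bases before the start in RAD51AP1, 8 and 5 before it in UNG, 60 before it in PARP2 and 131 before it in XRCC1. The core of the hypoxia response element, ACGTG, stood in 12 of the 41 repair promoters (29.3%), against 26.4% of the promoters of genes tested. It stood in 4 of 19 of those that fell and 7 of 19 of those tested and not called lower, beside 30.1% over all tested genes called lower. The PARP2 promoter holds 1 such word, and those of RAD51AP1, UNG and XRCC1 hold none. The CCAAT box (CCAAT) stood in 19 of 41 (46.3%, against 36.9%), and the cell cycle homology region (TTTGAA or TTCGAA) in 6 of 41 (14.6%, against 11.3%). That region stood in 1 of 19 promoters of genes that fell and 5 of 19 of those tested and not called lower. Among all tested genes called lower its share was 13.4%. These differences by call were not tested.

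Position gave a further view, with a single RefSeq start taken per gene and other starts not examined. By these starts 16 of the 41 genes begin within 1000 bases of another gene on the opposite strand that runs away from it. In 11 of these pairs the neighbour was tested too, and 6 neighbours were called lower and 0 higher, beside the 22.8% and 15.3% of all genes tested. In 3 pairs both genes fell: RAD51AP1 with FERRY3 (log2 difference -1.64), MRE11 with ANKRD49 (-1.10) and PMS1 with ORMDL1 (-0.66). BRCA1 fell while NBR1, 82 bases away by the starts used here, was not called (-0.11, adjusted p = 0.610). The reverse was seen too, since NPAT (-1.08), HSCB (-1.51) and DESI1 (-1.12) fell beside ATM, CHEK2 and XRCC6, which were not called on their chosen sets. XRCC4 and XRCC3 had neighbours with the opposite sign, TMEM167A (0.38) and ZFYVE21 (0.18), neither of them called.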

How the data were processed

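HCT116 cell RNA was hybridised to 4 arrays, 2 per oxygen level. Per the labels' protocols, 6 µg of total RNA went into biotin-labelled cRNA. The deposited values are intensities on a linear scale, which the authors computed with MAS5 (named in the submitters' processing notes, without a version). Trimmed by 2% at both ends, each array had a mean of 499.9. No 2 arrays shared more than 1 identical value.

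Probe sets of 1 gene (41091 of 54675) were named through the platform annotation, with current symbols by gene identifier. Each gene took its brightest probe set by mean, and those under a mean of 97.4, the median probe set, were not tested. The two-sided test was limma 3.58.1 (R 4.3.3), with lmFit and then eBayes with a trend on intensity, on log2(signal + 23.7). The added 23.7 is the 25th percentile of all values. The fit was also run on simulated data with equal spread in both groups, so that run did not cover the wider spread of the hypoxia arrays. Counts and medians of a list are descriptions, with no test. The number of arrays limits the precision.

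Signals on every array are given for, in each pathway, the called genes with the 4 largest differences, any called against the majority and the uncalled one with the smallest difference; other genes with array values were chosen after their values were seen, as were further probe sets that were called. Of the other lists up to 3 called genes are named, with SMUG1 added as a further glycosylase gene. The genes, lists and tests were chosen with earlier results of these data known. The divergent neighbours and the promoters shown were chosen after seeing the data. The deviations of same-letter arrays had a correlation of 0.065 over probe sets. With so few arrays this value cannot tell whether the letters pair the samples. Alternatives were other scalings, pseudocounts, filters and probe set rules, the letter as a replicate block, and each array left out. The mean over the probe sets of a gene takes in those under the filter.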

Additional observations from a re-analysis of the deposited data

How the results depend on the processing

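Of the values of single repair genes under other settings, 582 kept their side of the threshold without a called change of direction, 39 lost the call, 21 gained one and 3 reversed. Among the 582 are 18, of 9 genes not called in either fit (FANCC, LIG4, MLH3, MSH6, POLQ, XRCC1, XRCC2, XRCC3 and XRCC4), whose sign turned. NBN had 1.07 (adjusted p = 0.257) and PMS1 0.26 (0.718) without x and s probe sets, where another probe set stands for each, and PARP2 had -0.29 (0.744) with arrays scaled to the hybridization controls; the cause of that last change was not tested. With that scaling the median over all genes shifted by -1.37, and limma then called 0 of the 42 genes higher. It gave medians of -2.52 (all 42), -2.89 (homologous recombination), -2.76 (Fanconi), -1.67 (mismatch repair), -1.88 (end joining), -2.81 (base excision), -2.28 (damage signalling) and -2.10 (other repair genes), with 4 genes lower in each of mismatch repair, end joining and signalling, and 72 lower and 0 higher among other repair genes. Over all genes tested, the share called lower was 43.6% with that scaling, 19.0% with the 75th percentile and 22.8% as reported, and the share called higher 0.412%, 18.8% and 15.3%.

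Scaled to the 75th percentile, which shifted the median over all genes by 0.14, the medians were -0.97 (all), -1.25 (base excision) and -0.62 (other, 6 higher), with 1 end joining gene lower. Quantile normalization gave -1.06 (all), -1.28 (base excision) and -0.70 (other, 3 higher, beside 14.7% of all genes tested). A pseudocount of 1 gave -1.23 (all) and -0.80 (other), and one at the median probe set mean -1.01 and -0.61. The filter at the 75th percentile gave -1.47 (all), -1.27 (mismatch repair), -1.14 (signalling) and -0.55 (other). Averaging all probe sets of a gene gave -0.91 (all), -1.20 (homologous recombination), -0.58 (signalling) and -0.50 (other). It left 1 gene lower in mismatch repair, end joining and signalling each. Among other genes 26 were lower and 2 higher, beside 15.8% and 11.1% of all genes tested. Without x and s probe sets 14 genes fell and 0 rose (30 tested, PARP2 not among them). Of those that fell 4 were in homologous recombination (median -1.05) and 1 each in mismatch repair, end joining and base excision. Signalling had -1.14, and other genes 24 lower, 3 higher and -0.60. With no intensity trend 1 end joining gene and 22 other genes were lower, and at an adjusted p under 0.01, 1 and 21. Of all genes tested 14.3% and 14.2% were called lower in these settings.

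The main fit did not pair the samples by the letters A and B. The replicate block changed no call of the 42 genes (23 lower, beside 25.8% of all genes tested). It gave 2 other repair genes called higher, beside 17.6% of all genes tested. Leaving out each array in turn, with the lone sample assumed to vary like the other group, gave 14 to 27 genes lower (1 higher each time; median -1.26 to -1.01). By pathway it gave 4 to 11 in homologous recombination (-1.63 to -1.35), 3 to 4 in Fanconi (-1.61 to -1.06), 2 in mismatch repair (-0.45 to -0.23), 1 to 4 in end joining (-0.55 to -0.47), 3 to 4 in base excision (-1.43 to -1.10) and 1 to 3 in signalling (-1.07 to -0.72). Other repair genes had 15 to 51 lower and 0 to 6 higher (-0.83 to -0.61). Of the 42 genes PARP2 was the only one that limma called higher under any of these settings. Signals near the Bacillus controls limit the folds of 9 of the 23 genes that fell. They also limit those of wider-list genes such as RAD51D, FAAP100, OGG1 and XPA.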
